A study of Mus musculus with 4 samples.

Results

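The genes described here are Armcx1, Armcx3, Armcx4, Armcx5, Armcx6, Gprasp1 and Gprasp2, neighbours on the mouse X chromosome, taken by name from a table of allele-specific expression. They are 7 of 22686 genes in the table and 7 of its 952 X-linked genes. Armcx2, which lies among them, is given only for comparison. The table covers 4 libraries of female epiblast stem cells (EpiSCs), which are pluripotent cells resembling the epiblast of the embryo after implantation, labelled with stage E6.5. Smchd1 encodes SmcHD1, which is needed to keep many genes of the inactive X silent, and the cells were either Smchd1 +/+ or Smchd1 MD1/MD1. Every library also carried 1 of 2 Xist mutations in the heterozygous state, so that the Smchd1 +/+ controls are not wild type for Xist. The 4 groups were Smchd1 +/+ XistdeltaA/+, Smchd1 MD1/MD1 XistdeltaA/+, Smchd1 +/+ Xist1lox/+ and Smchd1 MD1/MD1 Xist1lox/+. By the labels all 4 have the same strain background, a cross of C57BL6/J with F1 animals of JF1 and C57BL6/J. There was 1 library per group, so no difference within a pair has a replicate check, and the labels do not say whether a library came from 1 line or from several.

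In female cells 1 X chromosome is silenced, and Xist, the RNA that coats the chromosome to be silenced, starts the process. A gene that is silenced gives reads of the active X alone, and reads of the other parental allele show expression from the inactive X. The Armcx genes encode proteins with armadillo-like repeats and make up a family on the X chromosome of placental mammals, related to the autosomal gene Armc10. Armcx1 and Armcx3 are known as proteins of the outer mitochondrial membrane that take part in the movement of mitochondria along axons, together with the Miro and Trak adaptor proteins. Gprasp1 and Gprasp2 encode relatives of the same family that bind G protein-coupled receptors, and Gprasp1 is known for directing such receptors to lysosomes after endocytosis.

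The members span 1.16 Mb of the X chromosome in mm9 and form a proximal and a distal group. In the proximal group lie Armcx4 (131221058 to 131232311, plus strand), Armcx1 (131252477 to 131256451, plus strand), Armcx6 (131282994 to 131285958, minus strand) and Armcx3 (131291107 to 131295995, plus strand). The distal group starts 1056 kb beyond the start of Armcx4 and holds Armcx5 (132277231 to 132281865), Gprasp1 (132277231 to 132338007) and Gprasp2 (132373573 to 132379269), all on the plus strand. Armcx5 and Gprasp1 have the same start in the table, and Armcx5 lies wholly within the span of Gprasp1 on the same strand, so reads of shared sequence cannot be told apart by strand.

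The start regions show which members share a start and which resemble each other. RefSeq start regions in build GRCm38.p6 were matched by symbol for 6 of the 7 members, and each is given from 100 bases before the start to 30 bases from the start on. Their coordinates belong to that build and not to mm9. Capitals mark CACGTG and TGACGT, hexamers that were picked after the sequences had been read and were searched on both strands; they do not overlap in these windows. Proximal genes come first, without Armcx3, the member not matched. They are Armcx4 at chrX:134686419-134686548 (plus strand), Armcx1 at chrX:134717838-134717967 (plus strand) and Armcx6 at chrX:134751390-134751519 (minus strand).
Armcx4: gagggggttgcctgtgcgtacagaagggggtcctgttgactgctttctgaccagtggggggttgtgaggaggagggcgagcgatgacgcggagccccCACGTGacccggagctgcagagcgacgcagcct
Armcx1: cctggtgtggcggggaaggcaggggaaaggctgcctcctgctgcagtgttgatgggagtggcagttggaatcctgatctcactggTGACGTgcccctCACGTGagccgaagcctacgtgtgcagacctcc
Armcx6: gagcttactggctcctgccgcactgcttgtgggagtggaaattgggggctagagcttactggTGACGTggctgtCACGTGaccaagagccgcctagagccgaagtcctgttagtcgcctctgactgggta

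The distal starts are at chrX:135742592-135742721 for Armcx5 and Gprasp1 and at chrX:135838934-135839063 for Gprasp2, with Bhlhb9 at chrX:135885751-135885880 beside them, all on the plus strand. Bhlhb9 is the next gene beyond Gprasp2 and belongs to the same wider family.
Armcx5 and Gprasp1: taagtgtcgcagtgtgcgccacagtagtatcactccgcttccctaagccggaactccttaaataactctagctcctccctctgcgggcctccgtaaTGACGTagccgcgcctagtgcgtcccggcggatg
Gprasp2: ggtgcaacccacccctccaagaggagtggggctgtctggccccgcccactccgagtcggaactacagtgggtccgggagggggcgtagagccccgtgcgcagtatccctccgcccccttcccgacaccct
Bhlhb9: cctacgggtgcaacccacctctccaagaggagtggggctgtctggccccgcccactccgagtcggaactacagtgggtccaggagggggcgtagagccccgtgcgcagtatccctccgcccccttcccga

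The 3 proximal starts given here hold CACGTG, as do 3.98% of the 32851 windows of this length in the RefSeq table and 4.99% of those on the X. TGACGT stands at the starts of Armcx1, Armcx6 and the shared start of Armcx5 and Gprasp1, and in 4.91% of all windows. The starts of Gprasp2 and Bhlhb9 hold neither hexamer, and an alignment gave 89.7% identical columns between them. The next most alike pair with separate starts was Armcx1 with Armcx6, at 51.6%. The shared start of Armcx5 and Gprasp1 had 12 CpG dinucleotides, against 5 at Armcx1, 6 at Armcx6, 9 each at Armcx4 and Gprasp2 and a median of 4 over all windows. These matches describe letters only.

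Reads that carry a variant and can be given to a parental allele numbered 7301034 to 8008500 per library. Smchd1 itself had 27.0 and 20.9 FPKM (fragments per kilobase of transcript, scaled to sequencing depth) in Smchd1 +/+, but 6.68 and 5.98 FPKM in MD1/MD1. At least 99.5% of Xist reads were paternal in each library, so the paternal X is the one that transcribed Xist. The level of Xist was 12.1 against 38.3 FPKM in the XistdeltaA/+ pair and 10.5 against 28.9 FPKM in the Xist1lox/+ pair, higher in MD1/MD1. Whether this goes with the paternal shares was not tested. Autosomal stretches with a median paternal share under 5% served as the background. In them the pooled share of reads called paternal, for XistdeltaA/+ and then Xist1lox/+, was 0.171% and 0.309% with Smchd1 +/+ against 0.896% and 0.386% with MD1/MD1. The pooled share is uneven over genes. In MD1/MD1 XistdeltaA/+ the median background gene was at 0.0435%, and 23.8% of these genes were at 1% or more. Elsewhere the median was 0%, with 5.21% to 11.5% of genes at 1% or more. All 8 EpiSC markers were above 1 FPKM in every library, and Pou5f1 was at 551 to 984 FPKM. Genes of other cell types were present too, and unevenly. With XistdeltaA/+, the summed FPKM of 12 fibroblast markers was 115 in +/+ against 672 in MD1/MD1. With Xist1lox/+ it was 303 against 256. For 11 macrophage markers it was 23.1, 925, 327 and 297 in the same order, and that of the neural markers was 46.8, 83.2, 73.2 and 66.7. Of the macrophage markers, 4 of the 11 (C1qa, Tyrobp, Lyz1 and Emr1) were listed at 0 in +/+ XistdeltaA/+. In the XistdeltaA/+ pair 8 of 11 tested fibroblast and 6 of 7 tested macrophage markers were at least 2-fold higher in MD1/MD1, in the Xist1lox/+ pair 0 of each, and their part in the results for the members was not tested. In bulk libraries fewer cells of a type and less RNA per cell cannot be told apart.

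The first comparison asked whether the members gave more paternal reads without SmcHD1. Armcx4, Armcx1 and Gprasp1 had paternal shares of at most 4.12% in every library, while Armcx5 reached 5.26% and 11.8% in MD1/MD1. Armcx6 and Gprasp2 were read too thinly for a rise as small as that of the median X-linked gene to be called. Armcx3 had 0 allele-assigned reads. The test needs 20 or more allele-assigned reads per library, which 6 members reached. In both Xist backgrounds 0 of these were called higher in MD1/MD1 and 0 lower (Fisher's exact test, two-sided, Benjamini-Hochberg adjustment over 341 X-linked genes). Of those 341 genes, 35.8% were higher and 2.05% lower in both. With 6 members, of which Armcx6 and Gprasp2 were read thinly and Armcx5 and Gprasp1 overlap, these shares cannot be told apart. At an unadjusted p under 0.05, 1 member, Armcx5, was higher in both pairs and 0 were lower, beside 132 and 8 of the 341 genes. In the XistdeltaA/+ pair 1 member was higher and 1 lower, against 46.0% and 3.52% of the X-linked genes. In the Xist1lox/+ pair 1 was higher and 0 were lower, against 41.1% and 4.69%. The median difference over the 6 members was 0 points in the XistdeltaA/+ pair and -1.05 points in the Xist1lox/+ pair, beside 2.72 and 2.33 points over all 341 genes. In the XistdeltaA/+ pair the members ran from -1.85 to 5.26 points. The 0 is the value of Armcx6 and Gprasp2, the thinly read ones, so that median does not tell whether the members rose less than other genes. This test compares reads of 2 libraries, not the conditions, and intervals given below (exact Clopper-Pearson, 95%) cover counting error only. Where a gene had 0 paternal reads, the limit given is the share that 3 reads would make, which is somewhat below the upper end of the exact interval (3% against 3.62% for 0 of 100 reads).

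**Figure D1:**
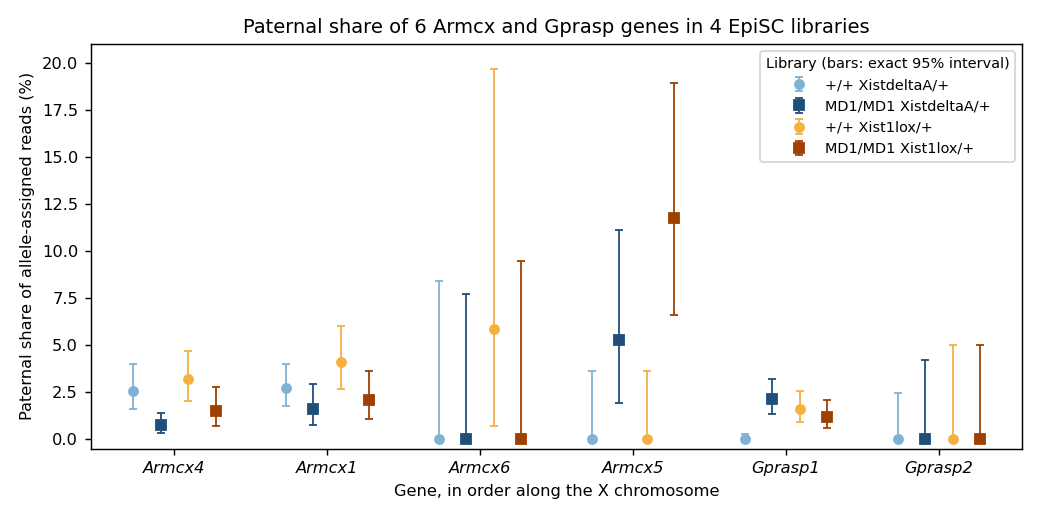
Paternal share of allele-assigned reads (y axis, percent) for the 6 members with enough reads (x axis, in order along the X) in the 4 libraries, with exact 95% intervals as bars. Armcx4 and Armcx1 have their higher shares in the +/+ libraries (circles), Armcx5 has its paternal reads in the MD1/MD1 libraries (squares), and Gprasp2 is at 0 throughout.

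Armcx4 and Armcx1 of the proximal group had some paternal reads in all 4 libraries, with the lower share in MD1/MD1 in each pair. Armcx4, a less studied member of the family, had 20 paternal of 771 reads in +/+ XistdeltaA/+, a share of 2.59% (1.59 to 3.98). In MD1/MD1 XistdeltaA/+ it had 9 of 1207, or 0.746% (0.342 to 1.41). This is below the pooled background share of that library, 0.896%, but above its median background gene, at 0.0435%. In +/+ Xist1lox/+ it had 24 of 752, or 3.19% (2.06 to 4.71), and in MD1/MD1 Xist1lox/+ 10 of 657, or 1.52% (0.732 to 2.78). Both +/+ libraries lay above both MD1/MD1 libraries. The share of Armcx4 fell by 1.85 points in the XistdeltaA/+ pair (Fisher's exact test, adjusted p = 0.00404), while the difference of -1.67 points in the Xist1lox/+ pair did not pass (Fisher's exact test, adjusted p = 0.105). In MD1/MD1 XistdeltaA/+, the library with the highest sums of fibroblast, macrophage and neural markers, Armcx4 also had its highest number of maternal reads. These were 1198 against 647 to 751 in the other libraries.

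Armcx1, one of the mitochondrial proteins of the family, had 25 paternal of 914 reads in +/+ XistdeltaA/+, or 2.74% (1.78 to 4.01), and 10 of 619 in MD1/MD1 XistdeltaA/+, or 1.62% (0.777 to 2.95). It had 25 of 607 in +/+ Xist1lox/+, or 4.12% (2.68 to 6.02), and 12 of 574 in MD1/MD1 Xist1lox/+, or 2.09% (1.08 to 3.62). The +/+ libraries were again the higher ones, but the intervals within each pair overlap. The differences of -1.12 and -2.03 points did not pass (Fisher's exact test, adjusted p = 0.274 and 0.123).

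Armcx6, also of the proximal group, was read too thinly to show differences of this size. It had 0 paternal reads of 42, 46 and 37 in +/+ XistdeltaA/+, MD1/MD1 XistdeltaA/+ and MD1/MD1 Xist1lox/+, which allows shares of up to 7.14%, 6.52% and 8.11%. In +/+ Xist1lox/+ it had 2 of 34. Armcx3 had 0 allele-assigned reads in every library, so its alleles were not measured although the gene was expressed.

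Summed over Armcx4, Armcx1 and Armcx6, paternal reads were 45 of 1727 in +/+ XistdeltaA/+ (2.61%, 1.91 to 3.47) and 19 of 1872 in MD1/MD1 XistdeltaA/+ (1.01%, 0.612 to 1.58). With Xist1lox/+ they were 51 of 1393 in +/+ (3.66%, 2.74 to 4.79) and 22 of 1268 in MD1/MD1 (1.74%, 1.09 to 2.62). These sums describe a group that was put together after its values were known and were not tested. Armcx2, which lies between Armcx3 and the distal group, had shares of 3.41% and 0.306% in the XistdeltaA/+ pair and of 3.72% and 1.80% in the Xist1lox/+ pair, and was called lower in both (Fisher's exact test, adjusted p = 2.39e-07 and 0.0304).

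In the distal group Armcx5 and Gprasp1 had paternal reads in different sets of libraries, and Gprasp2 had none. The limits of Gprasp2 given below lie above the shares of Gprasp1 in every library, so the counts do not tell Gprasp2 and Gprasp1 apart. Armcx5 had 0 paternal reads of 100 in each +/+ library, which allows a share of up to 3% in each. In MD1/MD1 it had 6 of 114 with XistdeltaA/+, or 5.26% (1.96 to 11.1), and 14 of 119 with Xist1lox/+, or 11.8% (6.58 to 18.95). Both MD1/MD1 libraries were above both +/+ libraries. The share of Armcx5 rose by 11.8 points in the Xist1lox/+ pair (Fisher's exact test, adjusted p = 0.000510), and the difference of 5.26 points in the XistdeltaA/+ pair narrowly missed the threshold (Fisher's exact test, p = 0.0310, adjusted p = 0.0604). Among the 6 members Armcx5 had the highest share in both MD1/MD1 libraries. Of the 341 X-linked genes, 38.7% were higher still in MD1/MD1 XistdeltaA/+ and 21.1% in MD1/MD1 Xist1lox/+.

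Gprasp1, the receptor sorting protein gene that shares its start with Armcx5, differed between the Xist backgrounds. It had 0 paternal reads of 1415 in +/+ XistdeltaA/+, which allows up to 0.212%, and 22 of 1037 in MD1/MD1 XistdeltaA/+, or 2.12% (1.33 to 3.19). In +/+ Xist1lox/+ it already had 16 of 996, or 1.61% (0.921 to 2.60), and in MD1/MD1 Xist1lox/+ it had 11 of 932, or 1.18% (0.591 to 2.10). The +/+ XistdeltaA/+ library thus stood apart from the other libraries. The share rose by 2.12 points in the XistdeltaA/+ pair (Fisher's exact test, adjusted p = 2.49e-08), and the difference of -0.43 points in the Xist1lox/+ pair did not pass (Fisher's exact test, adjusted p = 0.631). Zelen's exact test of equal odds ratios in both pairs called Gprasp1 (adjusted p = 4.12e-05) and none of the other 5 members, where 4.11% of the 341 genes were called.

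The counts of Armcx5 and Gprasp1 were not nested in each other. In MD1/MD1 Xist1lox/+ Armcx5 had 14 paternal reads and Gprasp1 had 11, so at least 3 of those of Armcx5 were not counted for Gprasp1. With the reads of both genes summed, paternal reads were 0 of 1515 and 28 of 1151 in the XistdeltaA/+ pair and 16 of 1096 and 25 of 1051 in the Xist1lox/+ pair. The summed shares of MD1/MD1 and +/+ were 2.43 points apart with XistdeltaA/+ and 0.919 points apart with Xist1lox/+. The sum was added after the data had been seen, and reads of shared sequence may be in it more than once, so it is given without a test.

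Gprasp2, a second receptor-binding relative, had 0 paternal reads of 148, 86, 72 and 72 with the libraries ordered as at the start, which allows up to 2.03%, 3.49%, 4.17% and 4.17%. Bhlhb9, the gene beyond it with the similar start, was read more deeply and also had 0 paternal reads, of 513, 444, 503 and 496, which allows 0.676% at most in any library. Neither gene showed a paternal read in any library.

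Against all X-linked genes, Armcx4 and Armcx1 changed place between genotypes. In the +/+ libraries 80.1% and 75.7% of the 341 genes had a lower paternal share than Armcx4, and 81.8% and 81.2% had a lower share than Armcx1. In MD1/MD1 those values were 20.8% and 31.4% for Armcx4 and 33.1% and 38.4% for Armcx1. The median X-linked gene had shares of 0% and 0.228% in +/+ and of 3.55% and 3.57% in MD1/MD1. The MD1/MD1 medians were above the shares of Armcx4, Armcx1 and Gprasp1, though the interval of Armcx1 with Xist1lox/+ reached 3.62%. Armcx6 and Gprasp2 had 0 paternal reads in MD1/MD1 but were read thinly. Their exact intervals there reached 7.71% and 9.49% for Armcx6 and 4.20% and 4.99% for Gprasp2. These counts do not place either gene below the median.

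**Figure D2:**
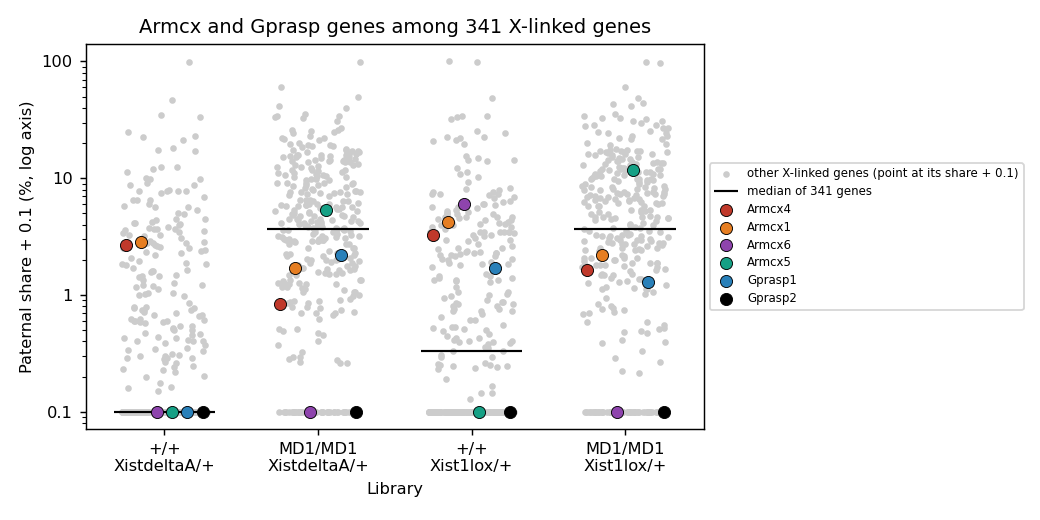
Paternal share plus 0.1 (y axis, percent, log axis) of 341 X-linked genes (grey) and 6 members (coloured) in the 4 libraries, with the median over all 341 genes as a black line. Armcx4 and Armcx1 lie above the line in +/+ and below it in MD1/MD1, and Armcx5 lies above it in both MD1/MD1 libraries.

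Between the Xist mutations 1 member, Gprasp1, was called, in 1 genotype. No member was called in both Smchd1 genotypes (Fisher's exact test with adjustment, 0 of 6, and 0 at an unadjusted p under 0.05), beside 2.35% of the X-linked genes. In Smchd1 +/+ the share of Gprasp1 was 1.61 points higher with Xist1lox/+ than with XistdeltaA/+ (Fisher's exact test, adjusted p = 2.08e-05), 1 of 6 members against 5.28% of X-linked genes called higher there. A lower share was called for 0 members, beside 1.47% of the genes. The 2 Armcx6 reads of +/+ Xist1lox/+ gave a difference of 5.88 points that did not pass (Fisher's exact test, adjusted p = 1). In MD1/MD1 the shares of Armcx5, 5.26% with XistdeltaA/+ and 11.8% with Xist1lox/+, rested on 6 and 14 paternal reads, and this difference did not pass either (Fisher's exact test, adjusted p = 0.528). In this genotype 0 of 6 members were called, beside 3.81% of the genes higher and 1.17% lower with Xist1lox/+. By the rule fixed for likeness, the genes closest to Gprasp1 in their shares over the 4 libraries were Rnf128, Rbmx and Ocrl, whose largest differences from it in any library were 0.781, 0.830 and 0.943 points.

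The neighbours show how the members sit in their interval. From 1 Mb before the first member to 1 Mb beyond the last, 19 other genes had enough reads, and 7 of them had a higher paternal share in MD1/MD1 in both pairs while 1, Armcx2, was lower in both. For the higher calls this is near the 35.8% of all X-linked genes tested, so the interval does not stand out. On the proximal side these were Cstf2, Cenpi and Hnrnph2. Hnrnph2, which encodes a splicing regulator, had 0 paternal reads with Smchd1 +/+, and reached 3.73% and 2.33% in MD1/MD1. On the distal side they were Bex1, Ngfrap1, Morf4l2 and BC065397. Bex1, at 2.75% and 1.16% in MD1/MD1, and Ngfrap1, at 3.74% and 3.57%, had 0 paternal reads in +/+. Genes called higher in both pairs were thus found on either side of the members. B230119M05Rik, the gene just before Armcx4, had at most 2 allele-assigned reads in a library.

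**Figure D3:**
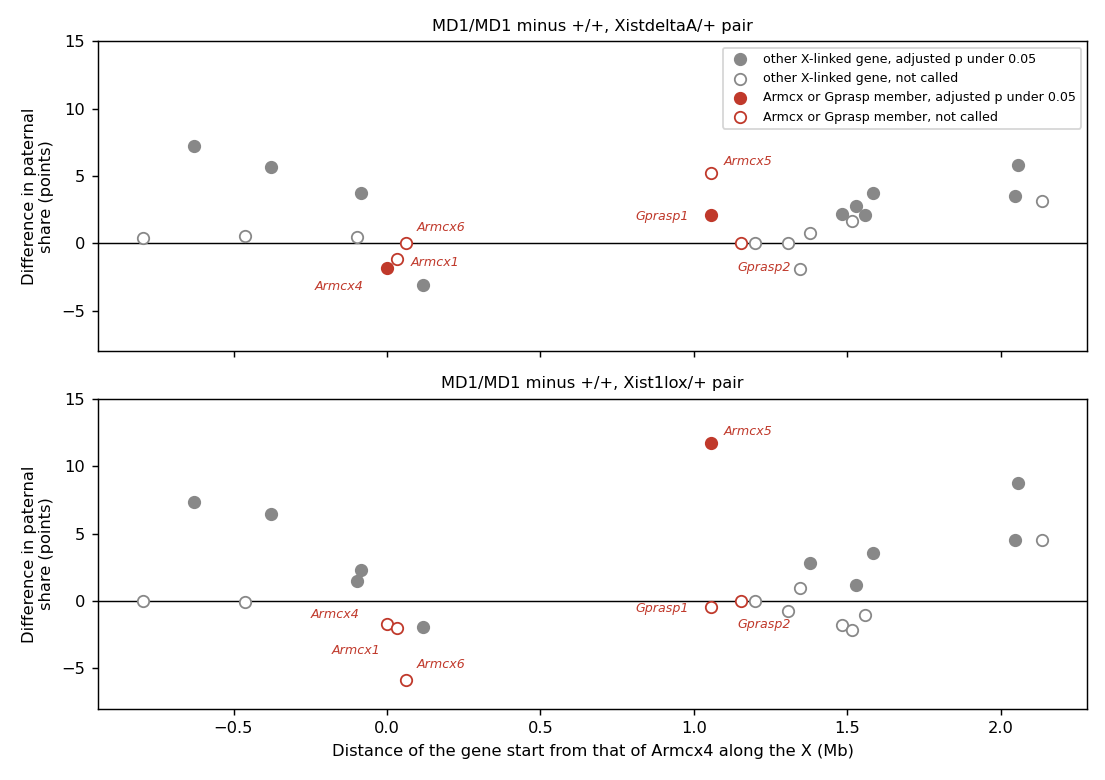
Difference in paternal share, MD1/MD1 minus +/+ (y axis, points), against the distance of each gene start from that of Armcx4 (x axis, Mb), in the XistdeltaA/+ pair (top) and the Xist1lox/+ pair (bottom), with members in red and genes past the adjusted threshold filled. Armcx4 and Armcx1 lie below 0 in both pairs, and Armcx5 lies above 0 in both.

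Total expression of the members was compared next, on the scale of log2(FPKM + 1). All 7 members passed the filter, a mean of 1 FPKM or more, and entered the test. limma called 0 of 7 for Smchd1 genotype, beside 0.0349% of 11471 genes. At an unadjusted p under 0.05 it gave 0 members, beside 3.26% of the genes. On allele-assigned reads edgeR and DESeq2 called 0 of the 6 members that have such reads, beside 0.0430% and 0.194% of all genes they tested. The Xist mutation gave 0 of 7 members with limma, also at an unadjusted p under 0.05, and 0 of 6 with edgeR and DESeq2. Of all genes, limma and edgeR called 0% and DESeq2 0.0381%. By a fixed rule of size on that scale, 0 members were 2-fold higher or 2-fold lower in both pairs, beside 0.131% and 0.113% of all genes. In the XistdeltaA/+ pair alone 0 members were past this fold, beside 3.91% of genes higher and 1.82% lower in MD1/MD1. In the Xist1lox/+ pair 0 members were, beside 0.445% and 0.375%. With a pseudocount of 0.1 or none 1 member, Gprasp2, was past it in the XistdeltaA/+ pair. The share of all genes was not computed at those settings. The median log2 ratio of the 7 members was -0.34 in the XistdeltaA/+ pair and -0.029 in the Xist1lox/+ pair, beside -0.048 and 0.0040 over all genes tested.

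**Figure D4:**
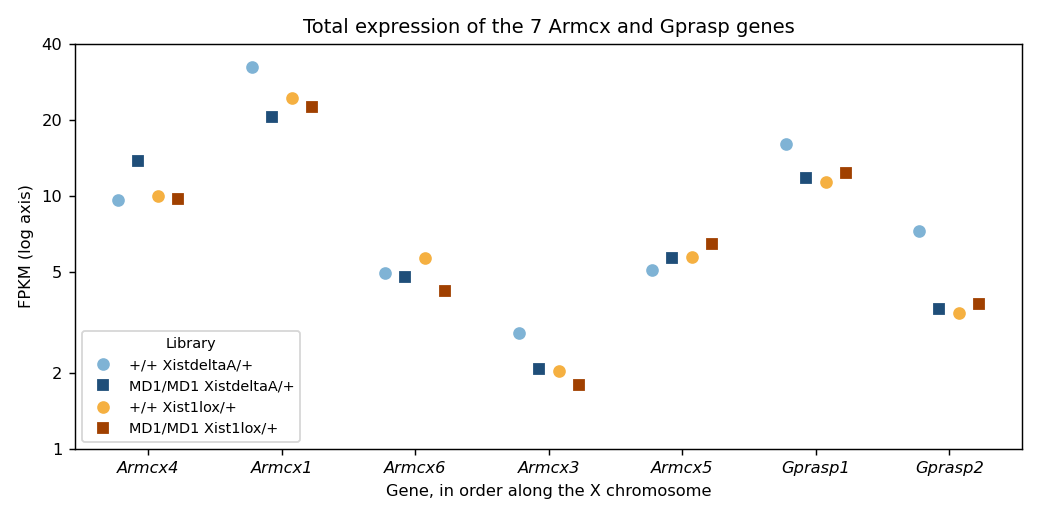
FPKM (y axis, log axis) of the 7 members (x axis, in order along the X) in the 4 libraries. Armcx1 is the highest and Armcx3 the lowest member in every library, and Gprasp2 is high in +/+ XistdeltaA/+ alone.

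Armcx1 had the highest level of the members in every library, at 32.4, 20.6, 24.4 and 22.6 FPKM, again with the groups in their opening order. The first, +/+ XistdeltaA/+, is the high one, and the others lie close together (limma log2 difference for MD1/MD1 of -0.37, SE 0.20, adjusted p = 0.937). Armcx3, the other mitochondrial member, was the lowest in every library at 2.88, 2.07, 2.04 and 1.79 FPKM in the same order, 1.62-fold from the lowest to the highest library.

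Gprasp1 came next after Armcx1 in 3 of the 4 libraries, at 16.1, 11.8, 11.4 and 12.3 FPKM. Armcx4 followed at 9.63, 13.7, 9.98 and 9.76 FPKM, and stood above Gprasp1 in MD1/MD1 XistdeltaA/+ only. Their ranges overlap, so their order does not hold beyond the spread between libraries. Attributed to alleles by its share, the paternal part of Armcx4 was 0.250, 0.102, 0.318 and 0.149 FPKM, and the maternal part 9.38, 13.6, 9.66 and 9.61 FPKM. The higher total of Armcx4 in MD1/MD1 XistdeltaA/+ thus stood with the maternal allele.

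Armcx5 at 5.08, 5.67, 5.74 and 6.47 FPKM and Armcx6 at 4.97, 4.77, 5.70 and 4.19 FPKM had overlapping ranges and the narrowest spreads, 1.27-fold and 1.36-fold from the lowest to the highest library. Of the total of Armcx5, 0.298 and 0.761 FPKM were attributed to the paternal allele in MD1/MD1, and 0 in both +/+ libraries.

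Gprasp2 had the widest spread. It was at 7.26 FPKM in +/+ XistdeltaA/+ and at 3.56, 3.44 and 3.74 in the other 3 libraries, so that 1 library stood apart, 2.11-fold above the lowest. Its log2 ratio was -0.86 in the XistdeltaA/+ pair and 0.095 in the Xist1lox/+ pair, and limma did not call it (log2 difference -0.38, SE 0.29, adjusted p = 0.937). All its allele-assigned reads were maternal, 148 in +/+ XistdeltaA/+ and 72 to 86 elsewhere. The library with the high value had the lowest sums of the fibroblast, macrophage and neural markers. It also had the lowest sum of the EpiSC markers, 1162 FPKM against 1632 to 1719 FPKM elsewhere. Whether the level of Gprasp2 goes with any of these lists was not tested.

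Genes that act with the family were taken from lists. Of 18 genes of mitochondrial transport and dynamics, 16 passed the level filter, and limma called 0 higher and 0 lower in MD1/MD1. Their median log2 ratios were -0.024 and 0.038. The highest expressed were Fis1, which acts in mitochondrial fission, with log2 ratios of -0.30 and -0.27, and Dnm1l, the fission dynamin, with -0.68 and 0.11. The partners Rhot1 and Trak2, named after their values were seen, were at 16.1, 11.8, 14.2 and 13.9 FPKM and at 6.33, 8.29, 6.70 and 6.95 FPKM, so both were present in all libraries.

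Of 17 genes of receptor endocytosis and lysosomal sorting, 17 passed the level filter and limma called 0 in either direction, with median log2 ratios of -0.081 and -0.051. Lamp1 and Rab7, a lysosomal membrane protein and a GTPase of late endosomes, were the highest expressed, with log2 ratios between -0.093 and 0.18. The X-linked Lamp2 of this list had a higher paternal share in MD1/MD1 in both pairs, at 0% and 3.05% with XistdeltaA/+ and 0.588% and 3.17% with Xist1lox/+ (Fisher's exact test, adjusted p = 1.77e-05 and 0.0472).

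The listed Bex, Tceal and Arxes genes belong to small families and, apart from Bex6 on chromosome 16, are X-linked and lie mostly beyond the distal group. Of these genes 12 passed the level filter and limma called 0 in either direction, with median log2 ratios of -0.071 and -0.20. Of the 8 with enough allele-assigned reads, 2 were called higher in both pairs, Bex1 and Ngfrap1, beside 35.8% of all X-linked genes tested. With 8 genes these shares cannot be told apart. In 1 pair only, Bex2 was called higher with Xist1lox/+ (0% and 2.85%, Fisher's exact test, adjusted p = 0.00539). Tceal8 (0.570% and 2.79%, adjusted p = 0.0486) and Wbp5 (1.49% and 3.60%, adjusted p = 3.05e-07) were called higher with XistdeltaA/+ by the same test. With Xist1lox/+ both had the lower share in MD1/MD1, Tceal8 at 4.12% and 2.36% and Wbp5 at 4.31% and 3.30%. Neither was called there. In the family list, Armc10 and Bhlhb9 were not called by limma either, at 30.9 to 42.7 FPKM and 14.6 to 19.3 FPKM, and neither was Armcx2 at 29.3 to 35.5 FPKM.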

How the data were processed

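Per the labels' protocols, TRIzol RNA of 4 EpiSC samples was sequenced from stranded mRNA libraries. The authors deposited 3 values per gene and library, per the file headers: the count of allele-assigned reads, the fraction of them that is paternal, and FPKM. Cufflinks 2.2.1, Cuffdiff and the build mm9 are named in the submitters' processing notes. The sources used here do not name the aligner, variant list or annotation, or say how FPKM was scaled. The table also holds 6 value columns that match none of the 4 samples, and these were left out.

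Fraction times count gave whole paternal reads for all values (tolerance 1e-06). Starts count from 0 in the table, since end minus start equals the RefSeq length for 44.5% of 21372 genes matched by symbol, against 2.90% with 1 added. They are given counted from 1.

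Shares were compared with Fisher's exact test and Zelen's exact test (scipy 1.17.1), adjusted over 341 X-linked genes with at least 20 reads in all libraries. FPKM was tested with limma 3.58.1 (trend, log2(FPKM + 1), Smchd1 plus Xist, 1 residual degree of freedom). This residual is the difference between both pairs. The pseudocount understates changes of low genes. edgeR 4.0.16 and DESeq2 1.42.0 on allele-assigned counts were alternatives, since those counts cover variants only. Fisher's and Zelen's tests, limma, edgeR and DESeq2 were tested on simulated data. Background stretches are autosomal windows of 10 Mb with a median paternal share under 5% and at least 5 genes whose neighbours on either side also qualified, a choice made after the data had been seen. Start regions were aligned with Biopython 1.88. The members, gene lists and tests were chosen with earlier results of these data known. All members are named, and of each list the genes past a test and the 2 with the highest mean FPKM.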

Additional observations from a re-analysis of the deposited data

Results flagged for a closer look

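Gprasp1 stood out because its difference between Smchd1 genotypes was not the same in both Xist backgrounds. Zelen's exact test of equal odds ratios gave an adjusted p of 4.12e-05 over 341 X-linked genes. The share was 2.12 points higher in MD1/MD1 with XistdeltaA/+, on 22 paternal reads against 0, and -0.43 points apart with Xist1lox/+, on 11 against 16. Each value comes from 1 library. The direction is not particular to Gprasp1. Tceal8 and Wbp5, beyond the distal group, were 2.22 and 2.11 points higher in MD1/MD1 with XistdeltaA/+. With Xist1lox/+ they were -1.77 and -1.01 points apart.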

How the results depend on the processing

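The counts of members called for paternal shares were the same with a minimum of 10 or 50 reads and with adjustment over all genes. In the Xist1lox/+ pair alone, which leaves out the libraries whose other cell type markers differ most (chosen after seeing the data), 1 member was called higher, Armcx5, against 0 in both pairs. The adjusted p of Armcx5 in the XistdeltaA/+ pair ranged from 0.0531 to 0.0776 over the alternatives, and that of Armcx4 from 0.00345 to 0.00525. In the XistdeltaA/+ pair 1 member, Gprasp2, was past 2-fold with a pseudocount of 0.1 or none, against 0 with 1 (added after seeing the data). The share of all genes past 2-fold was not computed with 0.1 or none. Over all genes, limma called 4 for Smchd1 genotype, edgeR 5 and DESeq2 22, and for the Xist mutation 0, 0 and 5. In the limma, edgeR and DESeq2 tests every pseudocount, filter, scaling and tool tried gave 0 called members with all 4 libraries. Leaving out each library in turn, with the tested factor as the only term and a lone library assumed to vary like the others, gave 0 called members for Smchd1 genotype and 0 to 1 for the Xist mutation. The 1 was Gprasp2 without MD1/MD1 XistdeltaA/+ (log2 difference -0.85, limma adjusted p = 0.0333), a fit that called 891 of 11471 genes. Of 40 recomputed log2 ratios 3 had another sign, all on allele-assigned reads scaled to their total, for Armcx6 in both pairs (0.083 and 0.18) and Armcx1 with Xist1lox/+ (0.019). Armcx6, Armcx5 and Gprasp2 rest on at most 148 reads a library. The labels give no replicate numbers, so no number could serve as a block. The limma model compares genotypes within Xist backgrounds, and without that term it also called 0 members.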

Other observations

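Armc10, the autosomal relative of the family (chromosome 5, 21151802 to 21168410), had 0 paternal reads of 682 in +/+ XistdeltaA/+, which allows up to 0.440%. In the other 3 libraries its paternal share was 51.4%, 48.7% and 44.2%. Its FPKM was 42.7 in the library without paternal reads and 30.9, 36.5 and 35.5 in the others. The autosomal background stretches of +/+ XistdeltaA/+ covered 1343 genes, with a pooled paternal share of 0.171%. Whether Armc10 lies in one of them was not tested. Some other listed autosomal genes also differed this widely between libraries. With the groups in their opening order, Kif5b was at 51.2%, 0.0266%, 0% and 52.7%, and Tsg101 at 0%, 44.8%, 0% and 51.1%. Others did not, such as Opa1 at 46.0% to 50.2%.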
